A study of Mus musculus with 24 samples.

Results

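Heart transcripts at ZT19, the middle of the dark phase, were compared with those at ZT07, the middle of the light phase. Zeitgeber time (ZT) counts hours from lights-on, so with lights on for 12 h and off for 12 h the 2 times lie 12 h apart. The arrays were chosen by the time point in their titles: 4 arrays of ZT19 hearts and 4 of ZT07 hearts, 8 of the 24 arrays in the series. All groups were myocardium of wild-type C57Bl/6 males aged 8 weeks, with no treatment or allele that differed between them. Hearts were snap frozen, and biotin-labelled cRNA from 500 ng of total RNA was hybridised to Affymetrix gene arrays. The other 16 arrays came from ZT03, ZT11, ZT15 and ZT23, with 4 at each time. The labels call the arrays of a time point biological replicates and say nothing more, so p-values measure the spread between these arrays. They name no batch, so a batch shared by the arrays of 1 time point cannot be told apart from time.

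Mice are nocturnal: they rest, fast and are cooler during the light phase, and they move, feed and are warmer in the dark phase. The molecular clock of each heart cell is a loop in which BMAL1 (gene Arntl) and CLOCK switch on genes through E-boxes, among them those of their own repressors, the PER and CRY proteins, and those of the REV-ERB receptors (Nr1d1 and Nr1d2). REV-ERB in turn represses Arntl, Nfil3 and Cry1 through ROR elements, and the factors DBP and NFIL3 act oppositely on D-boxes. In heart the clock and the feeding cycle are known to touch fuel choice, contraction, ion channels and protein folding.

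Values are on a log2 scale and give each gene's difference from its own median over the 24 arrays. They hold no level of expression, so genes cannot be ranked by level and the labelled tissue could not be checked against its marker genes. A positive difference means more RNA at ZT19, and folds assume that the logarithm has base 2. A gene was called where the adjusted p of limma's moderated test was below 0.05. Unless stated otherwise, the spread behind each SE and p of ZT19 against ZT07 was estimated from all 24 arrays. Heart tissue holds many cell types, and in such bulk RNA a change in the share of a cell type and a change in RNA per cell cannot be told apart.

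The spread of values over genes was similar on most of the 8 arrays (SD 0.100 to 0.118), except on ZT07 replicate 4, where it was 0.148. Of 22180 genes, 353 were called (1.59%), 197 higher (0.888%) and 156 lower (0.703%) at ZT19. Without ZT07 replicate 4 there were 168 calls, of which 156 were among the 353, and without ZT19 replicate 2 there were 187. The count was 224 without ZT19 replicate 1, 233 without ZT07 replicate 3, and highest, at 465, without ZT15 replicate 1, the array of widest spread in the series (SD 0.169). In every fit that left out 1 of the 24 arrays, 126 genes stayed called, 74 of them higher and 52 lower. The 15 largest differences each way that are described below were taken from these.

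Changes were mostly small. The median fold was 1.29 among the genes that were higher at ZT19 and 1.26 among those that were lower. A change of at least 1.5-fold was seen for 24 higher and 14 lower genes, and of at least 2-fold for 2 higher and 5 lower ones. Over all genes the median difference was -0.003 and 48.2% of differences were positive. Of the called genes 337 were protein-coding, 1.78% of the 18964 tested, against 1 of 1105 olfactory receptor genes. The 4 ZT19 values lay wholly above or below the 4 ZT07 values for 1774 of all genes (8.00%) and for 336 of the 353.

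**Figure D1:**
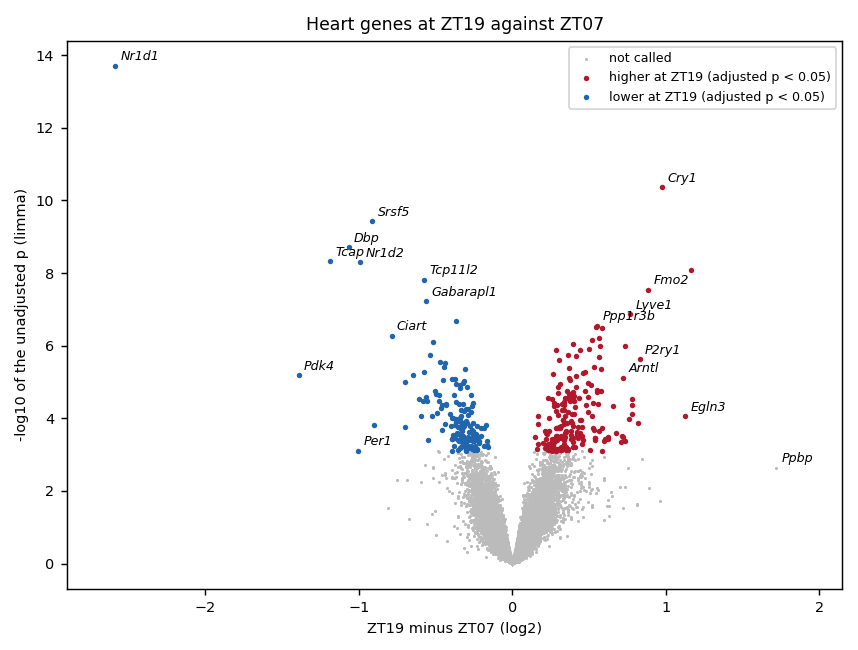
Difference between ZT19 and ZT07 (horizontal axis, log2, positive where ZT19 is higher) and strength of the test (vertical axis, minus log10 of limma's unadjusted p) for 22180 genes. Called genes are red where higher and blue where lower at ZT19. Nr1d1 lies farthest to the left at -2.58, and Ppbp, which was not called, farthest to the right at 1.72.

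The core clock list held 25 genes, of which 21 were measured and 11 were called, 3 higher and 8 lower at ZT19. Lower were the REV-ERB receptor genes, Dbp, the DEC genes Bhlhe40 and Bhlhe41, Per1, Per3 and Ciart, the gene of CHRONO. Cry1, Arntl and Nfil3 were higher. Per2 was not among the 21 measured genes. The median of the 21 differences was -0.04. Without ZT07 replicate 4, 9 of the 21 were called, the lowest number when 1 array was left out.

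Nr1d1, which encodes the repressor REV-ERB alpha, differed most in the whole comparison. Its values were -1.27, -1.50, -1.69 and -1.30 on ZT19 arrays 1 to 4, against 1.31, 1.26, 1.12 and 0.89 on ZT07 arrays 1 to 4. The groups were separated by more than the range of either. The difference was -2.58 ± 0.14 (SE, n = 4 each), 6.00-fold lower at ZT19, with an adjusted p of 4.34e-10. Its relative Nr1d2, for REV-ERB beta, stood at -0.37, -0.36, -0.41 and -0.74 at ZT19, against 0.48, 0.38, 0.49 and 0.74 at ZT07. No array of one group reached the other, and the transcript was 1.99-fold lower at ZT19 (-0.99 ± 0.11, adjusted p = 1.88e-05).

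The 3 clock genes that were higher at ZT19 were Cry1, Arntl and Nfil3, and whether REV-ERB had a part in this was not tested. Cry1, a repressor of BMAL1 and CLOCK, had 0.30, 0.15, 0.49 and 0.44 at ZT19, against -0.59, -0.65, -0.68 and -0.61 at ZT07. The ZT07 values lay within 0.1 of each other, and Cry1 was 1.97-fold higher at ZT19 (0.98 ± 0.08, adjusted p = 4.77e-07). Arntl had 0.17, 0.52, 0.10 and 0.52 at ZT19, against -0.10, -0.16, -0.57 and -0.75 at ZT07. Its arrays spread widely at both times, and the difference was 0.72 ± 0.12 (1.65-fold higher, adjusted p = 0.00372), with an adjusted p of 0.0852 in a fit of the 8 arrays alone. Nfil3, the D-box repressor, had 0.12, 0.07, 0.17 and 0.19 at ZT19, against -0.40, -0.32, -0.57 and -0.33 at ZT07. It was 1.46-fold higher at ZT19 (0.54 ± 0.07, adjusted p = 0.000484).

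Promoter stretches of these genes and of 2 lower ones are shown because they hold the letters of the elements named above. They are the strand of the gene, 5′ to 3′, from RefSeq on GRCm38.p6, and capitals mark the match.
Arntl, chr7:113207528-113207557, plus strand: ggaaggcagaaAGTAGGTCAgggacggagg
Nfil3, chr13:52981033-52981081, minus strand: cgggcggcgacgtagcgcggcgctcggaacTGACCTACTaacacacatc
Cry1, chr10:85185079-85185144, minus strand: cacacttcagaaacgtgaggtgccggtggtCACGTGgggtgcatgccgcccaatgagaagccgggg
Ciart, chr3:95882237-95882374, minus strand: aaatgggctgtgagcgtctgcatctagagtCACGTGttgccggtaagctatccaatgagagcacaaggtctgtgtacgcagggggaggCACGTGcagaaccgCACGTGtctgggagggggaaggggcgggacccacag
Per1, chr11:69098753-69098818, plus strand: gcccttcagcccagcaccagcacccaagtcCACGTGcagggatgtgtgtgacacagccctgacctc
Arntl and Nfil3 hold the ROR element core, searched as AGTAGGTCA, TGTAGGTCA or AGTGGGTCA, and Nfil3 holds it on the opposite strand. Cry1, Ciart and Per1 hold the E-box CACGTG, and the stretch of Ciart holds it 3 times. In the windows described next, no ROR core was found for Cry1. No E-box match was found for Nr1d1, Nr1d2 or Dbp, but a missing window or an E-box outside it would give the same result.

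Windows from 250 bases before to 50 after each RefSeq gene start were searched on both strands, each motif by itself whether or not it overlapped another. The window was known for 98 of the 119 genes given by name and for 16990 of all genes, some with several starts. An E-box lay in 10.6% of 207 promoters of genes higher at ZT19, in 14.4% of 132 promoters of genes lower at ZT19, and in 8.07% of all 20611 promoters. The ROR core lay in 2.42% of promoters of higher genes, in 0 of the 132 of lower genes and in 0.65% of all. For the D-box, searched as TTATGTAA or TTACGTAA, the shares were 1.93% of higher, 0.758% of lower and 0.995% of all promoters. The letters TGACGTCA, known as CRE, lay in 3.86% of higher, 0 of the 132 lower and 2.32% of all promoters. A match describes letters in a window and not a bound site.

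Dbp, which encodes the D-box activator, was among the largest falls. Its values were -0.37, -0.35, -0.21 and -0.48 at ZT19, against 0.70, 0.58, 0.84 and 0.73 at ZT07. That was 2.09-fold lower at ZT19, with every array on its own side of the gene's median (-1.07 ± 0.11, adjusted p = 1.10e-05). Ciart, for the BMAL1 repressor CHRONO, had -0.32, -0.37, -0.44 and -0.28 at ZT19, against 0.40, 0.13, 0.47 and 0.74 at ZT07 (1.73-fold lower, adjusted p = 0.000742). Bhlhe40 and Bhlhe41 encode the E-box repressors DEC1 and DEC2. Bhlhe40 had -0.03, -0.13, -0.30 and -0.01 at ZT19, against 0.43, 0.49, 0.60 and 0.59 at ZT07 (1.57-fold lower, adjusted p = 0.00329). Bhlhe41 was 1.44-fold lower (adjusted p = 0.014), but not without ZT07 replicate 4 (adjusted p = 0.0585) or ZT19 replicate 3 (adjusted p = 0.0517).

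The PER genes encode the partners of CRY in the repressor complex. Per3 was 1.42-fold lower at ZT19, with -0.17, -0.23, -0.21 and -0.16 at ZT19 against 0.25, 0.18, 0.16 and 0.65 at ZT07 (adjusted p = 0.00594). Per1 had 0.02, -0.79, -0.43 and -0.52 at ZT19, against 0.19, 0.23, 0.77 and 1.10 at ZT07. Its groups did not overlap, yet each spread over more than 0.8. It was 2.00-fold lower (-1.003 ± 0.256, adjusted p = 0.0491), which was not called when any of 16 of the 24 arrays was left out, with an adjusted p of up to 0.181.

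The other 10 measured clock genes were not called. These were Clock, Npas2, Cry2, Rora, Rorb, Tef, Hlf, Csnk1e, Fbxl21 and Usp2, and their differences lay between -0.10 for Usp2 and 0.15 for Csnk1e. Several of them had similar means at ZT07 and ZT19 and other means between. Hlf, a D-box activator like DBP, averaged -0.53 ± 0.15 at ZT03, -0.05 ± 0.13 at ZT07, 0.33 ± 0.13 at ZT11, 0.29 ± 0.14 at ZT15, -0.02 ± 0.10 at ZT19 and -0.25 ± 0.09 at ZT23 (SD, n = 4 each). Clock averaged 0.50 ± 0.06 at ZT03, 0.00 ± 0.17 at ZT07, -0.45 ± 0.07 at ZT11, -0.31 ± 0.16 at ZT15, 0.02 ± 0.08 at ZT19 and 0.46 ± 0.06 at ZT23. In both genes ZT07 and ZT19 lay midway between the highest and lowest means of the day. Arntl itself was highest at ZT03 (1.42 ± 0.12) and lowest at ZT11 (-1.13 ± 0.16), so its 1.65-fold difference between ZT19 and ZT07 was set between points inside its range.

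**Figure D2:**
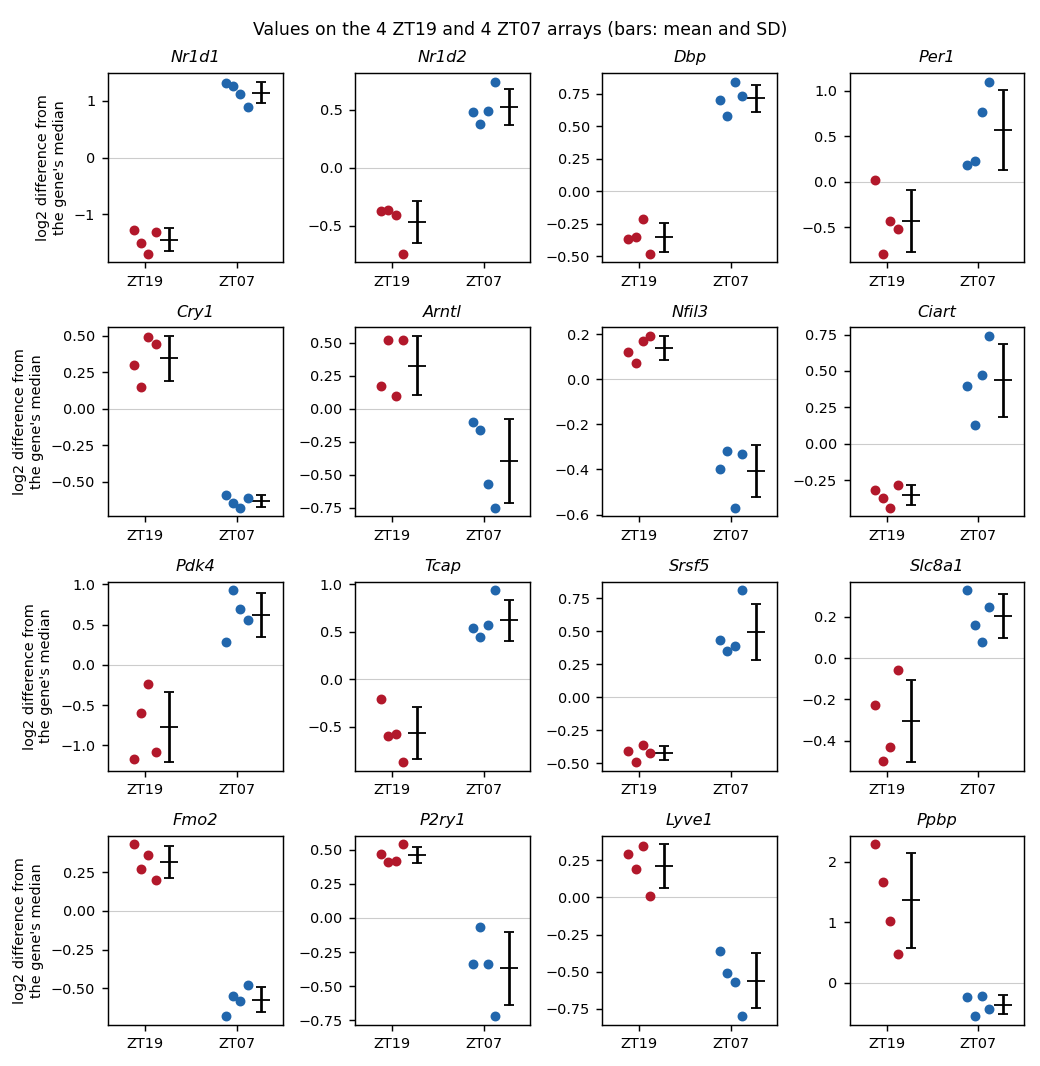
Values of 16 genes on each array (vertical axis, log2 difference from the gene's median over 24 arrays), ZT19 in red at the left and ZT07 in blue at the right of each panel, with the mean and SD of each group as bars. All ZT19 and ZT07 points are separated in each panel. The ZT19 points of Ppbp run from 0.47 to 2.29.

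Cry1 and Arntl were among the 15 largest rises that stayed called with any 1 array left out, and the others follow. Fmo2, a flavin-containing monooxygenase that oxidises foreign and sulfur compounds, had 0.43, 0.27, 0.36 and 0.20 at ZT19, against -0.68, -0.55, -0.58 and -0.48 at ZT07. It was 1.85-fold higher at ZT19 (0.89 ± 0.10, adjusted p = 7.09e-05). P2ry1, the ADP receptor best known from platelets, had 0.47, 0.41, 0.42 and 0.54 at ZT19, against -0.34, -0.07, -0.34 and -0.72 at ZT07. The ZT19 arrays were close to each other, and the gene was 1.78-fold higher (0.83 ± 0.13, adjusted p = 0.00173).

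Lyve1, the hyaluronan receptor of lymphatic endothelium and of resident macrophages, had 0.29, 0.19, 0.35 and 0.01 at ZT19, against -0.36, -0.51, -0.57 and -0.80 at ZT07. It was 1.70-fold higher at ZT19 (0.77 ± 0.10, adjusted p = 0.000277). Lgals9, for the lectin galectin-9, was 1.72-fold higher (adjusted p = 0.00868), with 0.34 to 0.41 at ZT19 against -0.71 to -0.17 at ZT07. Angptl7, a secreted angiopoietin-like protein, was also 1.72-fold higher (adjusted p = 0.00718), with 0.04 to 0.51 at ZT19 against -0.68 to -0.10 at ZT07. Cbr2, a carbonyl reductase, was 1.66-fold higher (adjusted p = 0.00106, and 0.0514 in the 8 arrays alone), and its ZT07 replicate 4 lay at -0.85 where the other 3 lay between -0.28 and -0.26.

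Slc46a3, a transporter of the lysosomal membrane, was 1.58-fold higher (adjusted p = 0.00879), and Tpp1, the lysosomal tripeptidyl peptidase, 1.48-fold higher (adjusted p = 0.00106). Tpp1 had 0.11, 0.14, 0.14 and 0.29 at ZT19, against -0.50, -0.30, -0.26 and -0.53 at ZT07. Zhx2, a zinc finger and homeobox repressor, was 1.5-fold higher (adjusted p = 0.000484). Podn, for the small leucine-rich proteoglycan podocan, was 1.5-fold higher (adjusted p = 0.00263), with 0.13 to 0.23 at ZT19 against -0.43 to -0.24 at ZT07. Fv1, a restriction factor against mouse retroviruses, was 1.49-fold higher (adjusted p = 0.00591). Homer1, a scaffold protein that binds calcium channels and receptors, was 1.48-fold higher (adjusted p = 0.000789).

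Besides clock genes, the 15 largest falls that stayed called with any 1 array left out took in genes of fuel use, the Z-disc and RNA processing. Pdk4 encodes the kinase that switches off pyruvate dehydrogenase and so spares glucose. It had -1.17, -0.60, -0.24 and -1.08 at ZT19, against 0.28, 0.93, 0.70 and 0.56 at ZT07. Spread was wide within both groups without overlap, and Pdk4 was 2.62-fold lower at ZT19 (-1.39 ± 0.23, adjusted p = 0.00334). Tcap encodes telethonin, which caps titin at the Z-disc. Its values were -0.21, -0.60, -0.57 and -0.87 at ZT19, against 0.54, 0.45, 0.57 and 0.94 at ZT07, 2.28-fold lower at ZT19 (-1.19 ± 0.13, adjusted p = 1.88e-05).

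Srsf5, a splicing factor with a serine and arginine rich domain, had -0.41, -0.49, -0.36 and -0.42 at ZT19, against 0.43, 0.35, 0.39 and 0.81 at ZT07. With tight ZT19 values it had the third smallest p of the genes named here (1.88-fold lower, adjusted p = 2.72e-06). Hnrnpdl, an RNA-binding protein of the nucleus, was 1.45-fold lower (adjusted p = 0.00148). Scin, the actin-severing protein scinderin, was 1.63-fold lower (adjusted p = 0.00418), with -0.43 to -0.10 at ZT19 against 0.23 to 0.56 at ZT07. Cited2, a cofactor that competes with HIF for p300, was 1.49-fold lower (adjusted p = 0.00795). Tcp11l2 was 1.49-fold lower (adjusted p = 4.22e-05), with -0.50 to -0.21 at ZT19 against 0.07 to 0.33 at ZT07. Ccn1, a secreted matricellular protein, was 1.48-fold lower (adjusted p = 0.00713).

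To describe pathways, 33 gene lists were counted. They held 807 different measured genes, of which 72 were called (8.92%), and 24 of the 33 lists had at least 1 called member. The lists were chosen with results of these data known, so this share is no measure of enrichment. Over all genes 1.59% were called, and the list counts below stand beside that share. Of the 101 called genes given by name here and in the closing section, the 54 with an adjusted p of 0.0122 or below stayed called when any 1 of the 24 arrays was left out. The other 47, with an adjusted p of 0.014 or above, each lost the call without at least 1 array. In a fit of the 8 ZT19 and ZT07 arrays alone, 59 of the 101 stayed called.

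Chaperones of the heat shock response refold damaged proteins and are known to follow body temperature. Of 29 measured members 6 were called, all higher at ZT19: Hspa1b, Chordc1, Hsph1, Hspa1a, Dnajb1 and Dnajb5. The median difference of the list was 0.18, and 24 of the 29 were positive. Mean values over the list lay between 0.10 and 0.14 on the ZT19 arrays, against -0.18 to -0.03 on the ZT07 arrays. The count was 2 without ZT07 replicate 4 or without ZT19 replicate 3, and 3 without ZT19 replicate 1 or ZT19 replicate 2.

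Chordc1, a cofactor of HSP90, had 0.25, 0.33, 0.51 and 0.57 at ZT19, against -0.07, -0.03, -0.35 and -0.16 at ZT07. It was 1.48-fold higher and stayed called in every fit (0.57 ± 0.09, adjusted p = 0.00158). Hsph1, the HSP110 nucleotide exchange factor, had 0.23, 0.45, 0.29 and 0.36 at ZT19, against -0.15, -0.05, 0.01 and -0.46 at ZT07. It was 1.41-fold higher (adjusted p = 0.00713). The stress-inducible HSP70 genes Hspa1a and Hspa1b are near-identical copies whose signals may not be separable. Hspa1b was 1.67-fold higher (adjusted p = 0.0343) and Hspa1a 1.38-fold higher (adjusted p = 0.0329), and these calls were lost without any of 6 and 7 of the 8 arrays. The HSP40 co-chaperones Dnajb1 and Dnajb5 were 1.28-fold (adjusted p = 0.019) and 1.26-fold higher (adjusted p = 0.0455), and they were not called when any of 3 and 15 of the 24 arrays was left out.

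The promoters of Chordc1 and Hsph1 hold the heat shock element, searched as GAA, TTC and GAA with 2 free bases between neighbours and shown here in capitals with its overlapping matches on either strand.
Chordc1, chr9:18292233-18292295, plus strand: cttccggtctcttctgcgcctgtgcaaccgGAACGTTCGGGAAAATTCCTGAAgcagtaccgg
Hsph1, chr5:149636287-149636316, minus strand: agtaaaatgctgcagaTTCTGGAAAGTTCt
The element lay in 4 of 207 promoters of genes higher at ZT19 (1.93%), in 2 of 132 of those lower at ZT19 (1.52%) and in 0.548% of all. The 4 include Chordc1 and 2 overlapping windows of Hsph1, which hold the same element. Among the 98 genes given by name that had a window, no other had a match. A missing window, an element outside it or 1 with other letters would also give no match, for the other called chaperones too.

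Cold-inducible RNA-binding proteins are known to move opposite to the chaperones with temperature. Of 10 measured genes in a list of these and other temperature-linked RNA-binding genes 2 were called, both lower at ZT19. The median difference was -0.10. List means lay between -0.125 and -0.023 on the ZT19 arrays. On the ZT07 arrays they were 0.234 on replicate 4 and between -0.004 and 0.047 on the others. The called genes were the splicing factor Srsf5 and Cirbp, the cold-inducible RNA-binding protein that has been tied to clock gene processing. Cirbp had -0.49, -0.25, -0.25 and -0.07 at ZT19, against 0.15, 0.12, 0.23 and 0.21 at ZT07. That was 1.36-fold lower (-0.44 ± 0.07, adjusted p = 0.0025), in every single-array fit.

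In the endoplasmic reticulum list 3 of 25 genes were called, all higher at ZT19, while the median difference was 0.01. Atf6, the membrane-bound stress sensor, was 1.33-fold higher (adjusted p = 0.00503), with 0.15 to 0.30 at ZT19 against -0.35 to -0.02 at ZT07. Xbp1, the factor spliced by IRE1, was 1.26-fold higher (adjusted p = 0.0168), and Herpud1, of the degradation complex, 1.23-fold higher (adjusted p = 0.00501). Of 20 amino acid transport and ATF4 target genes, Slc16a10, a carrier of aromatic amino acids, was the 1 called. It stood at 0.25 to 0.49 at ZT19, against -0.14 to -0.01 at ZT07 (1.43-fold higher, adjusted p = 0.000863).

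Of the 13 genes of pyruvate dehydrogenase and its regulators Pdk4 was the 1 called, and the median difference was -0.00136. Of 19 glycogen genes 3 were called, all higher at ZT19 and all subunits that target protein phosphatase 1 to glycogen, which favours glycogen storage. Ppp1r3b was 1.47-fold higher (0.55 ± 0.08, adjusted p = 0.000484), but its 2 probe sets disagreed, with 1.01 (adjusted p = 1.76e-05) for the one and 0.10 (adjusted p = 0.769) for the other. Ppp1r3c had 0.42, 0.09, -0.06 and 0.37 at ZT19, against -0.12, -0.28, -0.38 and -0.64 at ZT07 (1.48-fold higher, adjusted p = 0.0245). Ppp1r3a, the form of striated muscle, had 0.17 to 0.22 at ZT19, against -0.43 to -0.14 at ZT07 (1.35-fold higher, adjusted p = 0.0282). The glycogen count was 1 without ZT07 replicate 4, ZT19 replicate 1 or ZT19 replicate 4.

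Of 24 genes of glucose uptake and glycolysis, 1 rose and 1 fell. Slc16a1, the lactate and pyruvate carrier MCT1, was 1.31-fold higher at ZT19 (adjusted p = 0.00668), with 0.12 to 0.31 at ZT19 against -0.37 to -0.10 at ZT07. Pfkfb3, whose product stimulates phosphofructokinase, was 1.26-fold lower (adjusted p = 0.0324), a call lost without any of 7 of the 8 arrays. Among 25 genes of fatty acid uptake and oxidation Etfa, an electron carrier subunit for acyl-CoA dehydrogenases, was 1.2-fold lower (adjusted p = 0.0242), lost when any of 6 of the 8 arrays was left out. That list had 3 calls without ZT15 replicate 1. Of 17 PPAR, ERR and PGC-1 regulators the coactivator Ncoa1 was 1.17-fold higher (adjusted p = 0.0261) and the respiratory gene activator Gabpa 1.17-fold lower (adjusted p = 0.0303). Neither of these was called without ZT07 replicate 3, without ZT07 replicate 4 (adjusted p = 0.109 and 0.112) or without ZT19 replicate 4. Ncoa1 was also lost without ZT19 replicate 1, and Gabpa without ZT07 replicate 1, ZT19 replicate 2 or ZT19 replicate 3. Fdft1, squalene synthase, was the 1 called gene of 19 in sterol and fatty acid synthesis (1.24-fold higher, adjusted p = 0.0214), lost without any of 5 of the 8 arrays.

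In limma's test no gene was called among 46 of the respiratory chain, 27 of triglyceride turnover, 30 of insulin signalling, 21 of branched-chain amino acid catabolism or 17 of the tricarboxylic acid cycle. At an unadjusted p below 0.05 these lists held 15, 10, 8, 9 and 3 genes in that order, where all 22180 genes held 2910. The 31 proteasome, 43 cytosolic ribosomal protein, 32 ribosome biogenesis and 28 vascular genes likewise held no call, and 7, 7, 12 and 9 genes at an unadjusted p below 0.05. Among 31 NRF2, glutathione and NAD genes 2 were called, both higher at ZT19. Gsta3, a glutathione transferase, stood at 0.21 to 0.32 at ZT19, against -0.31 to -0.17 at ZT07 (1.44-fold higher, adjusted p = 0.0025). Nmnat1, the nuclear enzyme of NAD synthesis, was 1.5-fold higher (adjusted p = 0.0496), a call lost when any of 17 of the 24 arrays was left out.

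Autophagy and muscle atrophy genes, which break down cell parts in fasting muscle, gave 5 calls of 26, 4 of them lower at ZT19. Gabarapl1, an ATG8 protein of the autophagosome, had -0.41, -0.35, -0.43 and -0.60 at ZT19, against 0.11, 0.08, -0.04 and 0.30 at ZT07 (1.48-fold lower, adjusted p = 0.000133). The ubiquitin ligases of muscle atrophy both fell. Trim63 (MuRF1) had -0.08, -0.29, -0.25 and -0.19 at ZT19, against 0.19, 0.02, 0.38 and 0.50 at ZT07 (1.39-fold lower, adjusted p = 0.00648). Fbxo32 (atrogin-1) had -0.17, -0.38, -0.42 and -0.25 at ZT19, against 0.17, 0.06, 0.09 and 0.05 at ZT07 (1.32-fold lower, adjusted p = 0.0324). Wipi1, an early autophagosome protein, was 1.2-fold lower (adjusted p = 0.0265), whereas the ATG8 protein Map1lc3b was 1.25-fold higher (adjusted p = 0.044). The calls of Fbxo32, Wipi1 and Map1lc3b were lost without single arrays, and the count was 2 or 3 without any of the 8 arrays other than ZT07 replicate 2.

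Of 34 sarcomere and Z-disc genes 3 were called, all lower at ZT19, and the list's median difference was -0.09 with 10 positive. Besides Tcap these were Myom2, an M-band protein, and Lmod2, which lengthens thin filaments. Myom2 had -0.14, -0.17, -0.29 and -0.11 at ZT19, against 0.25, 0.15, 0.31 and 0.34 at ZT07 (1.36-fold lower, adjusted p = 0.00203). Lmod2 was 1.2-fold lower (adjusted p = 0.0473), lost without any of 17 of the 24 arrays. In the list of ventricular cardiomyocyte markers 0 of 13 were called (limma) and 3 had an unadjusted p below 0.05, with a median difference of -0.06.

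Calcium handling and adrenergic genes gave 2 calls of 30. Slc8a1 encodes the sodium-calcium exchanger that removes calcium after each beat. It had -0.23, -0.50, -0.43 and -0.06 at ZT19, against 0.33, 0.16, 0.08 and 0.25 at ZT07, 1.43-fold lower at ZT19 (-0.52 ± 0.08, adjusted p = 0.000954). Rrad, a small GTPase that inhibits the L-type calcium channel, had -0.11, -0.08, -0.24 and 0.05 at ZT19, against 0.72, 0.51, 0.65 and 0.53 at ZT07 (1.62-fold lower, adjusted p = 0.0212). No array overlapped, yet Rrad was not called when any of 5 of the 8 arrays was left out. Without ZT15 replicate 1 the list had 4 calls. Of 21 ion channel and connexin genes Kcnj5, an inward rectifier subunit, was called (1.32-fold higher, adjusted p = 0.032) and lost without any of 6 of the 8 arrays.

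Of 26 genes of cardiac stress and growth 5 were called, 3 higher and 2 lower, and the count was 3 without ZT07 replicate 4, ZT19 replicate 1, ZT19 replicate 2 or ZT19 replicate 4. Rcan2, a calcineurin inhibitor, was 1.21-fold higher at ZT19 (adjusted p = 0.00842), and Nfatc3, a factor that calcineurin activates, 1.30-fold higher (adjusted p = 0.0249). Srf, the serum response factor, was 1.26-fold higher (adjusted p = 0.019). Agtr1a, the angiotensin II receptor, had -0.39, -0.15, -0.17 and -0.22 at ZT19, against 0.05, 0.12, 0.27 and 0.02 at ZT07 (1.27-fold lower, adjusted p = 0.00845). Of 28 immediate early genes Ccn1 was the 1 called.

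The extracellular matrix list had 10 calls of 30, 4 higher and 6 lower, and 6 calls without ZT07 replicate 1 or without ZT19 replicate 1. The lower genes were the collagen chains Col1a1, Col3a1, Col4a2, Col6a3 and Col15a1 and the membrane-bound collagenase Mmp14. Col1a1, of fibrillar type I collagen, had -0.10, -0.28, -0.25 and -0.31 at ZT19, against 0.32, 0.25, 0.20 and 0.26 at ZT07 (1.41-fold lower, adjusted p = 0.00637). Col3a1 had -0.25, -0.29, -0.13 and -0.18 at ZT19, against 0.31, 0.17, 0.14 and 0.43 at ZT07 (1.39-fold lower, adjusted p = 0.00795). Col4a2, of the basement membrane, was the most changed of these and was 1.47-fold lower (adjusted p = 0.00795). Col6a3, Mmp14 and Col15a1 were 1.27-, 1.25- and 1.22-fold lower, with adjusted p-values of 0.0168, 0.0387 and 0.0104. Mmp14 was not called when any 1 of the 8 ZT19 and ZT07 arrays was left out (adjusted p up to 0.107), nor Col6a3 for 4 of them. Over all 44 collagen chain genes on the arrays, a count made after their values were seen, 6 were called and all 6 were lower, Col5a3 being the sixth, and the median difference was -0.08.

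The matrix genes that were higher at ZT19 have other roles. P4ha1, the prolyl hydroxylase that collagen needs to fold, had 0.25, 0.18, -0.01 and 0.32 at ZT19, against -0.15, -0.25, -0.52 and -0.37 at ZT07 (1.42-fold higher, adjusted p = 0.00458). Decorin (Dcn) and biglycan (Bgn) are small proteoglycans that bind collagen fibrils. Dcn had 0.15, 0.12, 0.16 and 0.09 at ZT19, against -0.16, -0.13, -0.18 and -0.45 at ZT07 (1.28-fold higher, adjusted p = 0.00591). Bgn was 1.36-fold higher (adjusted p = 0.0168), and the gelatinase gene Mmp2 was 1.22-fold higher (adjusted p = 0.0301). Of 12 fibroblast markers 9 were positive, with a median of 0.14. The 3 called were Dcn, Col1a1 and Col3a1, which the matrix list holds too.

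Hypoxia-responsive genes gave 4 calls of 22 and 2 without ZT19 replicate 4. Egln3, the oxygen sensor PHD3, had 0.42, 0.62, 0.39 and 1.19 at ZT19, against -0.38, -0.20, -0.39 and -0.91 at ZT07. It was 2.18-fold higher at ZT19 (1.13 ± 0.23, adjusted p = 0.014), but not called without ZT07 replicate 4 (adjusted p = 0.0649) or ZT19 replicate 4 (adjusted p = 0.056), the arrays farthest out. P4ha1 was also higher, and Cited2 and Pfkfb3 were lower.

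Glucocorticoids peak near the onset of activity in mice. Of 27 responsive genes 6 were called, with Lcn2, Cdkn1a and Hsd11b1 higher at ZT19 and Pdk4, Per1 and Klf9 lower. The median difference was 0.04, and the count was 3 or fewer without any of the 8 arrays other than ZT07 replicate 2, down to 1. Lcn2, an iron-binding protein of inflammation, was 1.45-fold higher (adjusted p = 0.0316). Cdkn1a, the cell cycle inhibitor p21, was 1.45-fold higher (adjusted p = 0.0333), and Hsd11b1, which regenerates active glucocorticoid, 1.28-fold higher (adjusted p = 0.0459), a call that 18 of the 24 single-array fits lost. Klf9, a Kruppel-like factor, was 1.25-fold lower (adjusted p = 0.0331). The glucocorticoid response element, searched as ACA, 3 free bases, TGT, 1 free base and C, lay in 3.38% of promoters of higher, 2.27% of lower and 2.79% of all genes.

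Of 13 Kruppel-like factors Klf9 and Klf7 were called. Klf7 was 1.15-fold higher (adjusted p = 0.0378), with 0.38 (adjusted p = 0.017) for one of its probe sets and 0.02 (adjusted p = 0.89) for the other, and neither factor was called without ZT07 replicate 2 or 3 or without ZT19 replicate 2, 3 or 4. In the list of cell cycle and p53 target genes 3 of 29 were called, and 1 without ZT07 replicate 4 or without ZT19 replicate 2, 3 or 4. Wee1, the mitotic kinase known as a clock target, was 1.60-fold higher (adjusted p = 0.0261), with 0.01 to 0.58 at ZT19 against -0.54 to -0.20 at ZT07. Ccng2, the atypical cyclin G2, was 1.25-fold lower (adjusted p = 0.00399). Of 29 interferon and inflammation genes 3 were called, with 1 call without ZT07 replicate 4, ZT19 replicate 1 or ZT19 replicate 4 and 5 without ZT11 replicate 3. Besides Lcn2, the protease inhibitor gene Serpina3n was 1.46-fold higher (adjusted p = 0.032), and Stat3, the factor downstream of IL-6, was 1.21-fold lower (adjusted p = 0.0122).

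**Figure D3:**
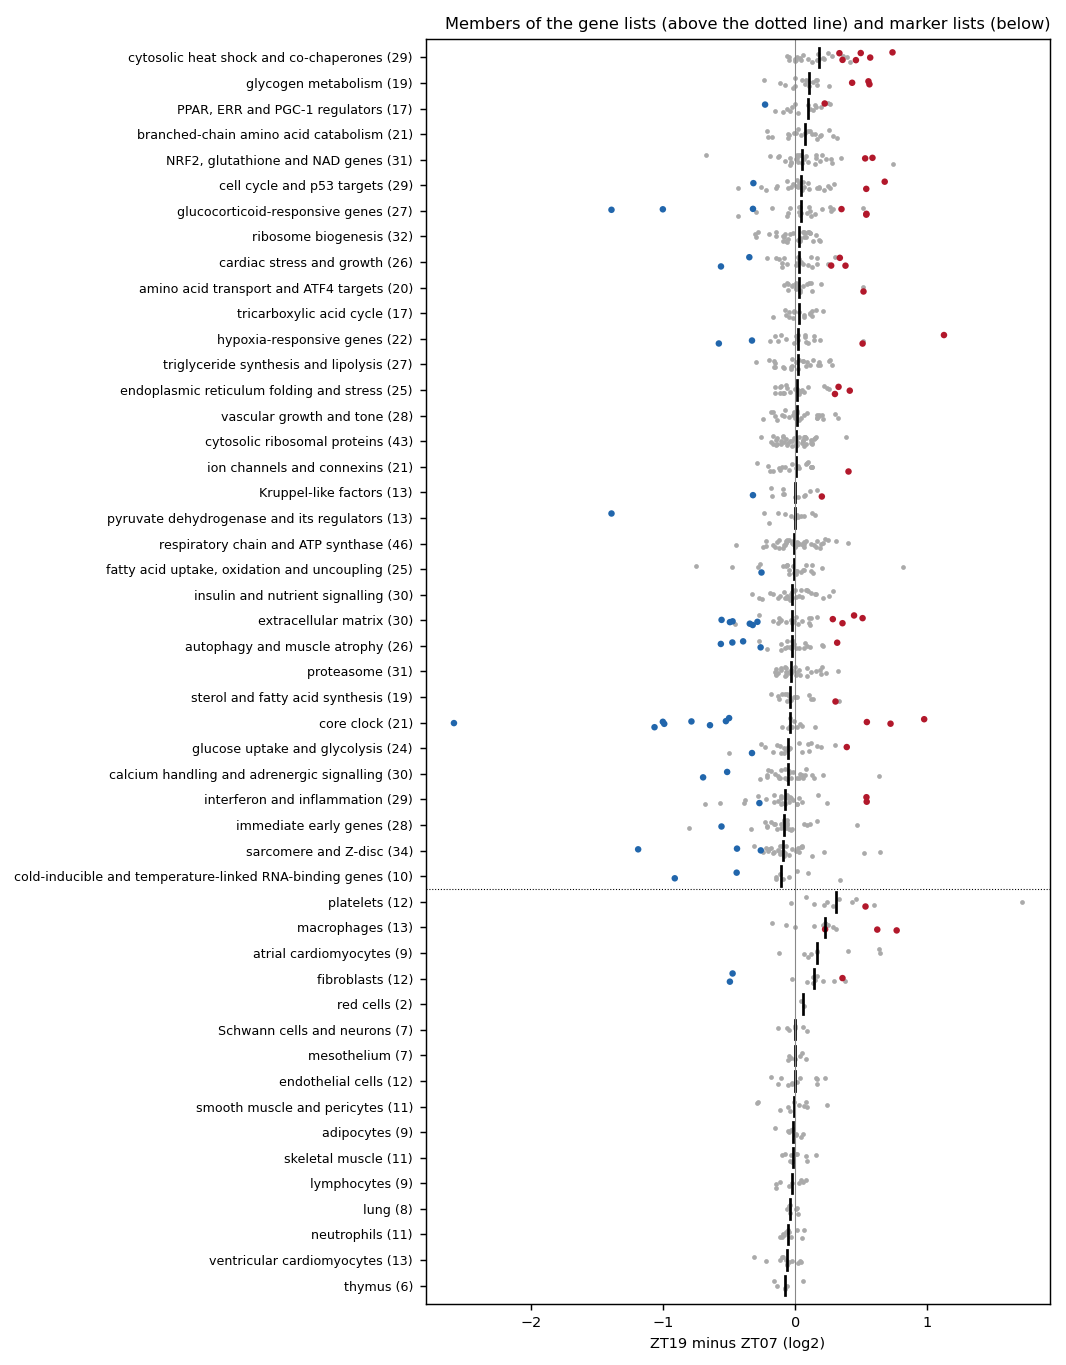
Difference between ZT19 and ZT07 (horizontal axis, log2) of each measured member of 33 pathway lists, above the dotted line, and of 16 cell type marker lists, below it, with the number measured in brackets. Called genes are red where higher and blue where lower at ZT19, other genes are grey, and black bars are list medians. Called chaperones lie to the right of 0, and the 3 called sarcomere genes to the left.

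Among 478 microRNA genes on the arrays 3 were called, all lower at ZT19. That is a smaller share than the 1.59% called among all genes, and the median difference of the 478 was -0.002. They are named here after their values were seen. Mir99a had -0.05, -0.04, -0.36 and -0.04 at ZT19, against 0.45, 0.41, 0.42 and 0.65 at ZT07 (1.52-fold lower, adjusted p = 0.00718). Mir23b was 1.30-fold lower (adjusted p = 0.0324) and Mirlet7b 1.14-fold lower (adjusted p = 0.0415), with calls lost without any of 6 and 9 of the 24 arrays. The mature RNAs listed for them by RefSeq on GRCm38.p6 are given with the seed, bases 2 to 8, in capitals.
mmu-miR-99a-5p: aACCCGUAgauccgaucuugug
mmu-miR-99a-3p: cAAGCUCGuuucuaugggucu
mmu-miR-23b-5p: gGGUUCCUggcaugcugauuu
mmu-let-7b-5p: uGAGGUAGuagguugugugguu
mmu-let-7b-3p: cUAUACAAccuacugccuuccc
No 2 of these share a seed. The files do not say whether a probe set reads the precursor or a mature arm.

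Of the 16 lists of cell type markers, 3 held a called gene: fibroblasts, macrophages and platelets. Their part in the gene lists above was not tested. Platelet markers had the highest median of the 16 marker lists at 0.31, with 11 of 12 positive and 1 called. Their mean lay between 0.03 and 0.57 on the ZT19 arrays, against -0.15 to -0.07 on the ZT07 arrays. Ppbp, the platelet chemokine precursor, had 2.29, 1.67, 1.02 and 0.47 at ZT19, against -0.24, -0.55, -0.22 and -0.43 at ZT07. Although its groups did not overlap and it was 3.29-fold higher at ZT19, its adjusted p was 0.0884, and 0.00751 without ZT15 replicate 1. Pf4, platelet factor 4, had 0.50, 0.40, 0.13 and 0.15 at ZT19, against -0.27, -0.14, -0.29 and -0.21 at ZT07. It was 1.44-fold higher (adjusted p = 0.0214), but not when any of 5 of the 8 arrays was left out. At the other dark times Pf4 averaged 0.11 ± 0.21 at ZT15 and 0.06 ± 0.20 at ZT23 (SD). Ppbp averaged 1.21 ± 1.52 and 1.60 ± 0.64 there. Without ZT15 replicate 1 the platelet list had 3 calls. P2ry12, an ADP receptor like P2ry1, had 0.92, 0.54, 0.26 and -0.09 at ZT19, against -0.31, -0.19, -0.27 and 0.00 at ZT07, which overlapped (adjusted p = 0.121).

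Macrophage markers had a median of 0.23, with 10 of 13 positive and 3 called, all higher at ZT19. The list mean lay between 0.01 and 0.12 at ZT19, against -0.26 to -0.07 at ZT07. Besides Lyve1, C1qb, a chain of complement C1q, was 1.54-fold higher (adjusted p = 0.0324), and Timd4, a receptor for dying cells, 1.17-fold higher (adjusted p = 0.0406). C1qb had 0.30, 0.30, 0.16 and 0.10 at ZT19, against -0.38, -0.28, -0.33 and -0.63 at ZT07. The list had 1 call without ZT07 replicate 1, ZT07 replicate 4, ZT19 replicate 1, ZT19 replicate 2 or ZT19 replicate 3.

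Atrial markers had a median of 0.16 with 8 of 9 positive, 0 called in limma and 4 at an unadjusted p below 0.05. ZT19 replicate 3 was high in them: Sln (sarcolipin) stood at 1.87 there, against -0.25 to 0.33 on the other ZT19 arrays and -0.21 to 0.02 at ZT07. Myl7, the atrial regulatory light chain, had 0.11, 0.50, 0.70 and -0.22 at ZT19, against -0.30, -0.50, -0.41 and -0.29 at ZT07 (adjusted p = 0.183). No member was called by limma among 12 endothelial, 11 smooth muscle, 11 neutrophil, 9 lymphocyte or 11 skeletal muscle markers, which held 4, 3, 1, 2 and 1 at an unadjusted p below 0.05. None of the red cell, adipocyte, lung, thymus, Schwann cell and neuron or mesothelial markers was called, or reached an unadjusted p below 0.05.

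Across the 6 times, ZT19 had the highest mean in 142 of the 197 higher genes and ZT07 the lowest in 137, with both in 103. Of the 156 lower genes, 75 were highest at ZT07 and 76 lowest at ZT19, with both in 39. These counts follow in part from how the genes were called. Over all genes 16.8% were highest at ZT19 and 15.6% at ZT07. Another 45 of the lower genes were highest at ZT03, among them Scin (0.66 ± 0.09 at ZT03 and 0.38 ± 0.17 at ZT07), and 47 were lowest at ZT23. Tcap was highest at ZT11 (0.81 ± 0.03) and lowest at ZT23 (-1.09 ± 0.19), and at ZT03 it averaged -0.58 ± 0.22, close to its ZT19 mean of -0.56 ± 0.27. Lyve1 was highest at ZT15 (0.55 ± 0.23), and Fmo2 likewise (0.82 ± 0.20).

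**Figure D4:**
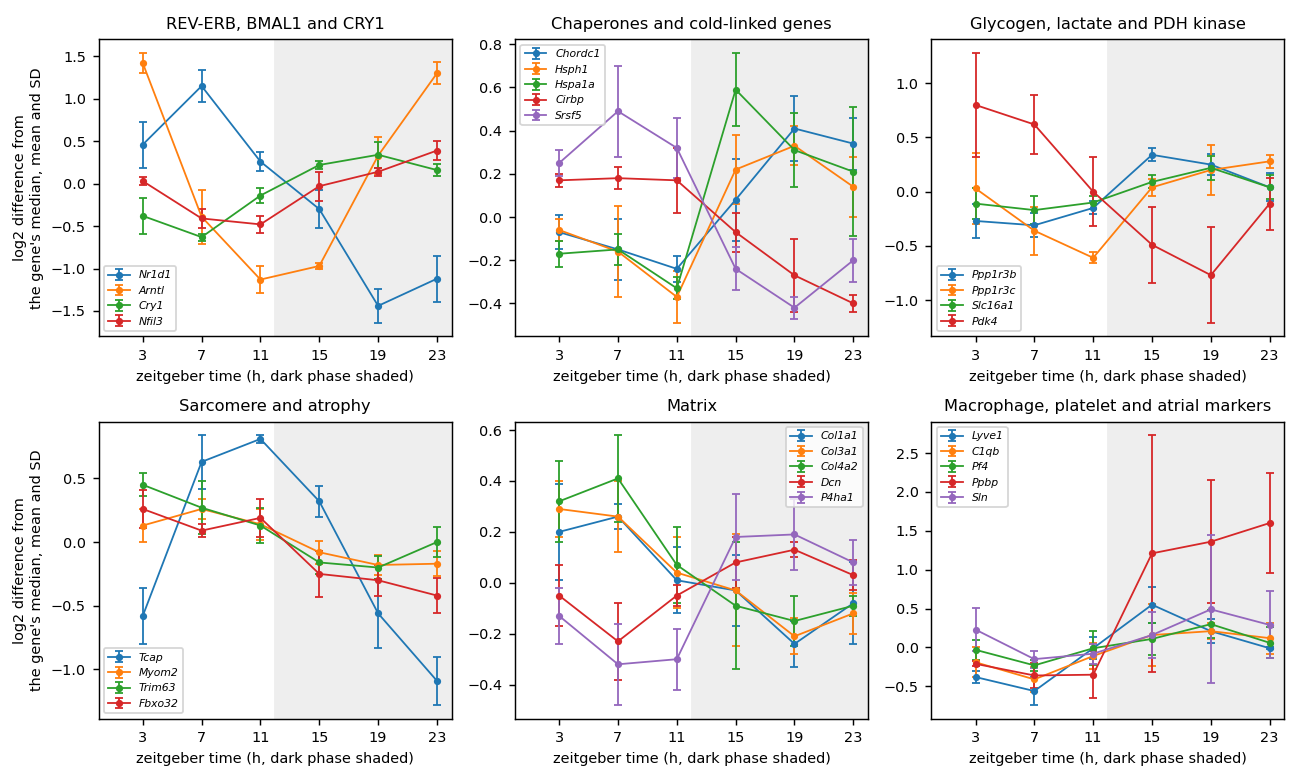
Mean and SD of 4 arrays at each of the 6 times (horizontal axis, zeitgeber time in hours with the dark phase shaded, vertical axis, log2 difference from the gene's median) for 6 groups of genes. Nr1d1 averages -1.44 at ZT19 and 1.15 at ZT07, whereas Arntl is highest at ZT03 and lowest at ZT11. The ZT15 bar of Ppbp is the widest of all.

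The 16 arrays of the other times were used as samples of neighbouring hours. Their differences come from arrays other than those of ZT19 and ZT07. Their spread, however, also entered the test that called genes between ZT19 and ZT07. A gene of low spread on these 16 arrays is thus favoured in both fits, and the calls of both are not independent. The mean of ZT15 and ZT23 was set against that of ZT03 and ZT11 in a fit without any ZT19 or ZT07 array. It called 230 genes (1.04%), 83 higher in the dark (0.374%) and 147 lower (0.663%), and between 118, without ZT11 replicate 3, and 339, without ZT11 replicate 1, when 1 array was left out. Of the 197 genes higher at ZT19, 184 (93.4%) were also higher in the dark there, where 52.8% of all genes were. Of the 156 lower at ZT19, 148 (94.9%) were also lower there.

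The calls shared by both fits were 35 higher genes, 17.8% of the 197 and 42.2% of the 83. They were 66 lower genes, 42.3% of the 156 and 44.9% of the 147, and no gene was called in opposite directions. Between the neighbouring times the median difference was 0.13 for the higher and -0.19 for the lower genes. Between ZT19 and ZT07, where they were selected by size of difference and test, it was 0.37 and -0.33. Nr1d1 was again lower in the dark (-1.07 ± 0.10, adjusted p = 0.000331), as were Srsf5 (-0.50 ± 0.05, adjusted p = 0.000331), Cirbp (-0.40 ± 0.04, adjusted p = 0.000637) and Scin (-0.67 ± 0.09, adjusted p = 0.00183). Cry1 was higher (0.45 ± 0.06, adjusted p = 0.00133), and so were Hsph1 (0.40 ± 0.06, adjusted p = 0.00403) and Lyve1 (0.47 ± 0.06, adjusted p = 0.0026). All 6 called chaperones were called there too.

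Other genes that were called between ZT19 and ZT07 were not called between the neighbouring times. Arntl differed by 0.02 ± 0.06 (adjusted p = 0.939) and Bhlhe40 by 0.03 ± 0.08 (adjusted p = 0.935). In both, the 2 means averaged on each side had opposite signs. Arntl averaged 1.42 at ZT03, -1.13 at ZT11, -0.97 at ZT15 and 1.30 at ZT23. Bhlhe40 averaged -0.21, 0.27, 0.23 and -0.10 at these times. Slc46a3 differed by 0.10 ± 0.10 (adjusted p = 0.781). Of the 10 called matrix genes 1 was called there, and Col1a1 differed by -0.16 ± 0.07 (adjusted p = 0.397). Ppbp, not called between ZT19 and ZT07, was called there (1.69 ± 0.37, adjusted p = 0.0435). Whether the 2 comparisons differ from each other was not tested.

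**Figure D5:**
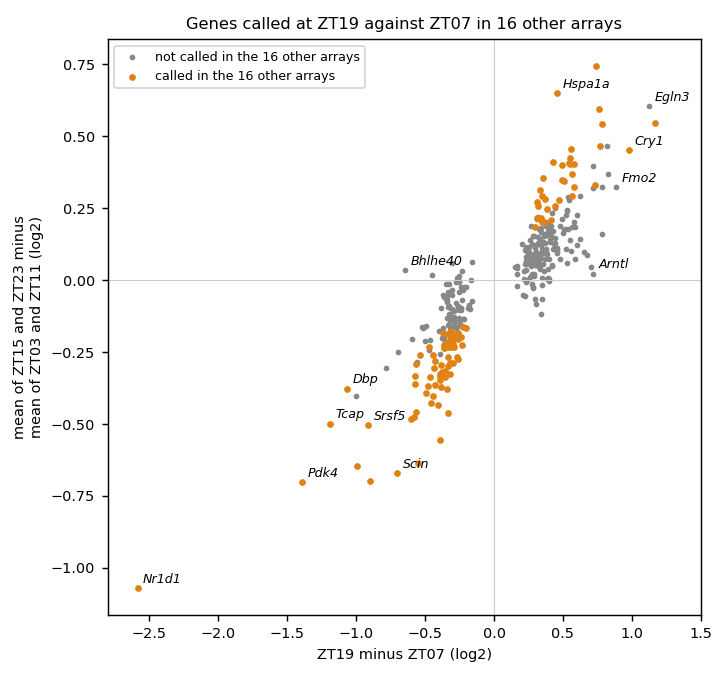
The 353 called genes by their difference between ZT19 and ZT07 (horizontal axis, log2) and by that of the neighbouring times (vertical axis, log2). The latter is the mean of ZT15 with ZT23 minus that of ZT03 with ZT11. The differences come from different arrays, but the spread on all arrays entered the calling of the 353 genes. Orange genes were also called in the 16 other arrays. Most points lie in the lower left and upper right, and Arntl and Bhlhe40 lie near 0 on the vertical axis.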

How the data were processed

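Per the labels' protocols, total RNA was extracted with TRIzol and biotin-labelled for Affymetrix arrays, 1 array per sample. The deposited table gives 1 log2 value per probe set and array. How the authors summarised, normalized and centred these values, and with what software, is not given in the sources used here. Each probe set's deposited log2 values have a median of 0, so they are differences from that median. Base 2, and higher values meaning more RNA, are assumptions. No filter on dim genes was possible, and no signal over background is known.

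Of 34351 probe sets, 23521 named 1 gene in the platform annotation, 1814 several and 9016 none, and those with 1 gene were averaged to 22180 genes. Of these probe sets 23328 were found in a RefSeq gene table, which changed 0 symbols. Array medians ran from -0.00345 to 0.00699. No array repeated the values of another, and the number of arrays limits the precision. Of the 34351 probe sets, however, 931 shared all their values with another probe set. How many of these entered the 22180 genes was not counted, and genes read by such probe sets are not separate measurements.

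Arrays were grouped by the time in their labels. A moderated test in limma 3.58.1 (R 4.3.3) was fitted to the 6 time means of all 24 arrays, with Benjamini-Hochberg adjustment over all genes and a threshold of 0.05. SE is that of the fit. The neighbouring times were fitted on the other 16 arrays. The fit was tested on simulated data. The members, lists, tests and named genes were chosen with earlier results of these data known, and 88 listed genes were not measured. Named are the 15 largest differences each way among genes called in each of the 8 fits without 1 ZT19 or ZT07 array and with groups that do not overlap. Genes with Gm and digits, Rik, Mir, Snor or Olfr in the symbol were passed over. Added were the measured core clock genes, up to 4 called members of each list by p, and up to 4 platelet, macrophage and atrial markers. Further called list members, collagens and microRNAs were added after their values were seen. Alternatives were the 8 arrays alone, single arrays left out, the 3 widest arrays left out, array weights, quantile or median scaling, a replicate block, other handling of probe sets, a robust prior and a filter on SD.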

Additional observations from a re-analysis of the deposited data

Results flagged for a closer look

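For each gene given by name, the 4 values of a time were checked for 1 value that lies far from the other 3, by the ratio of its gap to the range. Chance marks about 1 in 20 such sets. Of 238 sets 20 were marked, 8 of them in ZT07 replicate 4 and 3 in ZT19 replicate 1. In ZT07 replicate 4 the marked values were -0.85 for Cbr2, 0.12 for Klf9, -0.37 for Slc16a1, -0.45 for Dcn, 0.02 for Sln, -0.45 for Ctsb, 0.65 for Mir99a and -0.52 for Map1lc3b. ZT19 replicate 1 was apart at 0.13 for Podn, 0.20 for Cry2 and 0.01 for Usp2. ZT19 replicate 2 was apart at 0.22 for Nfatc3. ZT19 replicate 3 was apart at 0.03 for Lcn2, -0.03 for Fdft1, -0.05 for Srf, -0.36 for Mir99a and 0.84 for the atrial light chain Myl4. ZT19 replicate 4 was apart at 0.29 for Tpp1, -0.74 for Nr1d2 and -0.01 for Timd4.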

How the results depend on the processing

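In the 8 ZT19 and ZT07 arrays alone 178 genes were called in place of 353, 107 higher in place of 197 and 71 lower in place of 156, and 146 of the 353 were among them. Quantile scaling gave 526 calls, 283 higher and 243 lower. Other settings stayed within 1.5 times of the main count: 446 with array weights, 268 without the 3 widest arrays and 453 among genes with an SD above the median. With 1 array left out the count ran from 168 to 465, with 89 to 279 higher and 79 to 186 lower. The lowest of each came without ZT07 replicate 4 and the highest without ZT15 replicate 1. For the neighbouring times the range was 118 to 339, quantile scaling gave 269 calls and array weights 313. Arrays with the same replicate number did not deviate together (correlations of -0.06, 0.02, 0.03 and -0.01), so the numbers were not taken as pairs. A replicate block gave 299 calls between ZT19 and ZT07 and 142 in place of 230 between the neighbouring times. No called gene given by name changed direction under any of these settings. This follows largely from how genes were called, since groups that do not overlap keep their order when arrays are left out or weighted. The groups did not overlap for 336 of the 353 called genes. Of the 101 called genes given by name, 59 stayed called in the 8 arrays alone, 72 without the 3 widest arrays and 89 with the block. With 1 array left out, between 60 and 101 stayed called. The cause of these shifts was not tested. The array number and the lack of levels limit what small differences can show.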

Other observations

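Gene families outside the lists were counted by their symbols after the values were seen. Over all genes 1.59% were called. Of 19 heterogeneous nuclear ribonucleoprotein genes, whose products package and splice nascent RNA, 3 were called, all lower at ZT19, and the median difference was -0.16. Hnrnpu, a scaffold of nuclear RNA, had -0.26, -0.20, -0.05 and -0.26 at ZT19, against 0.14, 0.17, -0.02 and 0.42 at ZT07 (1.29-fold lower, adjusted p = 0.0159). It was not called without ZT07 replicate 4 (adjusted p = 0.0639), ZT19 replicate 1 or ZT19 replicate 4, and without each of these Hnrnpm was lost too, which left Hnrnpdl of the 3. Hnrnpm was 1.23-fold lower (adjusted p = 0.0491), a call lost without any of 18 of the 24 arrays. Of 10 splicing factors of the Srsf family Srsf5 was the 1 called, and the median difference was -0.03.

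Of 18 cathepsin genes, for proteases that are mostly lysosomal, 2 were called, both higher at ZT19, while the family's median difference was 0.00027. Ctsb had 0.17, 0.22, 0.22 and 0.44 at ZT19, against -0.13, -0.09, -0.11 and -0.45 at ZT07 (1.37-fold higher, adjusted p = 0.0214). Ctsc, which activates proteases of immune cells, was 1.30-fold higher (adjusted p = 0.0324). Neither was called without ZT07 replicate 4 (adjusted p = 0.0905 for Ctsb and 0.124 for Ctsc) or without ZT19 replicate 4 (0.0759 and 0.0801). Macrophage markers had a median of 0.23, with 10 of 13 positive, and whether the 2 cathepsins are linked to them was not tested. Of 10 CHMP genes, subunits of the ESCRT machinery that cuts membranes, Chmp2b and Chmp4b were called and were lower at ZT19 (1.27-fold, adjusted p = 0.0329, and 1.29-fold, adjusted p = 0.0178). Neither of them was called without ZT07 replicate 3, ZT07 replicate 4 or ZT19 replicate 2, with adjusted p-values of 0.053 to 0.106. Of 41 Dnaj co-chaperone genes 3 were called, all higher, with a median difference of -0.01. Dnajc4 was 1.29-fold higher at ZT19 (adjusted p = 0.00261) and stayed called when any 1 of the 24 arrays was left out.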
